A study of Arabidopsis thaliana with 48 samples.

Results

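The nuclear genes of leaf carbon fixation and of photorespiration were followed in Arabidopsis thaliana Columbia rosettes under 4 growth lights, over a day, and after a step in light. The set holds 39 of the 33602 loci counted. Of these, 24 belong to the Calvin cycle (the Rubisco small subunits, Rubisco activase, the cycle's enzymes and CP12) and 15 to photorespiration (its enzymes and the transporter PLGG1). The rule takes them by locus name and uses no measured value, though the members were chosen with earlier results of these data known. All 39 passed the filter on low counts in every comparison. Plants grew for 6 weeks. For the last 2 weeks light was set by shade cloth, with a 10 h photoperiod, days of 23°C and nights of 5°C. The labels give these conditions for all groups.

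In the growth light groups, leaves came from plants at 100, 250, 450 or 700 µmol m-2 s-1, all labelled day 0.583. The time course used plants at 250 µmol m-2 s-1 labelled day 0.083, 0.25, 0.375, 0.625, 0.75 and 0.916. The light step took plants from 100 to 700 µmol m-2 s-1, sampled at labelled days 0.6 and 2.57. The submitters give the step as about 20 h, and the labels do not say from when the days were counted. Each of the 12 groups had 2 replicates. A replicate was a library from pooled RNA of several plants combined at random, so the spread between replicates is that between pools. The labels do not give which of the growth rooms a plant stood in, so a difference between rooms was not tested.

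In the Calvin cycle, Rubisco binds carbon dioxide to ribulose bisphosphate, the product is phosphorylated and reduced to triose phosphate, and most of that carbon is rearranged to make the acceptor again. Rubisco also reacts with oxygen, which yields phosphoglycolate. Photorespiration recovers its carbon through the chloroplast, the peroxisome and the mitochondrion, where glycine is split and carbon dioxide and ammonia are released. Rubisco small subunit genes are a classical case of light-regulated transcription, and CP12 is a small chloroplast protein that ties phosphoribulokinase and glyceraldehyde 3-phosphate dehydrogenase into an inactive complex in the dark.

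Total counts ran from 20418095 to 36331053 per replicate, and the 39 loci took between 5.24% and 9.80% of them. Levels are in CPM, counts divided by library size after trimmed-mean (TMM) scaling of all 24 replicates together. Changes are log2 ratios from a quasi-likelihood fit in edgeR, their p-values were adjusted across every tested locus by the method of Benjamini and Hochberg, and "called" means an adjusted p under 0.05. With 2 replicates a group, no exact test of a single value between 2 groups could reach that threshold. The leaf label was checked against markers: 4 mesophyll genes (LHCB1.3, LHCB5 and LHCA4 of the light-harvesting antenna and the carbonic anhydrase gene BCA1) summed to 6494 to 35295 CPM, while shoot meristem and flower markers summed to at most 16.5 and 2.62 CPM. The meristem sum was uneven, at 7.65 and 16.5 CPM at day 0.083, 12.7 and 1.90 at day 0.75 and 15.4 and 7.63 at day 0.916. In all other groups it was at most 4.89 CPM, and its part in the results was not tested. LHY, a clock gene known to peak around dawn, was highest at day 0.25 (579 and 606 CPM) and lowest at day 0.75 (0.692 and 0.753 CPM).

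The replicates of some groups stood apart in these genes. The 24 Calvin cycle loci summed to 36585 and 63101 CPM at day 0.916, to 57440.3 and 43075 CPM at day 0.75 and to 43165 and 32193 CPM at 450 µmol m-2 s-1. At 100 µmol m-2 s-1 they lay close together (63644 and 64204 CPM). Counting could also blur some members. Of the 39, 16 have another locus with at least 85% identity over 100 bases or more, among them all 4 RBCS genes, GGT1 with GGT2, GLDP1 with GLDP2 and GOX1 with GOX2. A further gene overlaps 11 of them, including GLDP1, RCA, FBA3 and PRK, and whether strand was used in counting is not given in the sources used here. In the annotation AT1G80380 is only a P-loop protein and AT1G32470 only a single hybrid motif protein, so both are named here by locus. It lists PLGG1 as uncharacterized, and GGT2 as an alanine:2-oxoglutarate aminotransferase. The transcript of AT1G32470 is 87.0% identical over 525 bases to that of GDCH, the H-protein of glycine decarboxylase.

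Upstream sequence is shown for the isozyme pairs GGT1 and GGT2 and GLDP1 and GLDP2, and for RBCS2B, the small subunit gene with the widest range over the day, because their levels are compared with those of close relatives below. Each is the 250 bases before the annotated gene start, read 5′ to 3′ on the gene's strand from TAIR10.1 (RefSeq), with matches to the G-box CACGTG or the I-box GATAAG on either strand in capitals. RBCS2B lies at chr5:15382072-15382321 (minus strand), GGT1 at chr1:8272022-8272271 (minus strand), GGT2 at chr1:26612109-26612358 (plus strand), GLDP1 at chr4:15931423-15931672 (minus strand) and GLDP2 at chr2:11114292-11114541 (minus strand).
RBCS2B: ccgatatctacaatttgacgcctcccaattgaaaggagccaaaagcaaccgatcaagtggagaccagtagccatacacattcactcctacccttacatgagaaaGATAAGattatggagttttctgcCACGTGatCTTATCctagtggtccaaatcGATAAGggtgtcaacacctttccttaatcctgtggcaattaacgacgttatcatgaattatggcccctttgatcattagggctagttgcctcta
GGT1: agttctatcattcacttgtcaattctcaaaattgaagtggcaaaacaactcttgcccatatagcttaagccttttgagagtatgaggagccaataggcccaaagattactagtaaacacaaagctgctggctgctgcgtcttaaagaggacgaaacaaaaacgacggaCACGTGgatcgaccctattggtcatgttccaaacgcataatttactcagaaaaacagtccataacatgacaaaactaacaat
GGT2: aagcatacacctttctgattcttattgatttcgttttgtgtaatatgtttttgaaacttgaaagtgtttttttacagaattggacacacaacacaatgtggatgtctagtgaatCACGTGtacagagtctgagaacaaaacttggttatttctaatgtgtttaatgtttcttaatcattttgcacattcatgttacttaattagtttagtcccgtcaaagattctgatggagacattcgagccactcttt
GLDP1: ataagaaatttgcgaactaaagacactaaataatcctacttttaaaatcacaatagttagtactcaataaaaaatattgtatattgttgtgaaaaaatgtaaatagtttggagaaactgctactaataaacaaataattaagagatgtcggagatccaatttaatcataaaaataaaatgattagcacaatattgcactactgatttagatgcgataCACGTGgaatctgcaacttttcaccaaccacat
GLDP2: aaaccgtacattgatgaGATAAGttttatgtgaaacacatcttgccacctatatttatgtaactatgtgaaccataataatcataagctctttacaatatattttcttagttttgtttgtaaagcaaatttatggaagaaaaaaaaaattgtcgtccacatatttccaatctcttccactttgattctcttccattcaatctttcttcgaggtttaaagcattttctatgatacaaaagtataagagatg
The RBCS2B window held a G-box at -123 to -118 from the gene start, flanked by I-boxes at -146 to -141 and -115 to -110 with a further one at -94 to -89. The G-box of GGT2 lay at -136 to -131, that of GGT1 at -82 to -77 and that of GLDP1 at -33 to -28, while GLDP2 had an I-box at -233 to -228 and no G-box in this window.

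Over such windows, a G-box was found in 4 of 24 Calvin cycle loci (16.7%) and 3 of 15 photorespiration loci (20.0%), against 6.49% of 27443 nuclear protein-coding genes. An I-box was found in 5 of 24 (20.8%) and 1 of 15 (6.67%), against 12.3%. The evening element AAAATATCT was in none of the 39 windows and in 2.36% of all. These are matches of letters and were not tested as sites.

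Levels spanned a wide range within each family. At 100 µmol m-2 s-1, RBCS1A stood at 15548 ± 221 CPM per kb of exon (SD, n = 2), RBCS3B at 5364 ± 27.2, RBCS2B at 3535 ± 63.4 and RBCS1B at 1147 ± 84.2. RBCS1A was the most abundant small subunit transcript per length in that group. The 2 transketolase genes were far apart, TKL1 at 759.8 ± 10.5 and TKL2 at 5.12 ± 0.205 CPM per kb. So were the peroxisomal glutamate:glyoxylate aminotransferases, GGT1 at 771 ± 21.5 and GGT2 at 21.4 ± 0.431 CPM per kb. CP12-3 was the scarcest of the 3 CP12 genes, at 5.65 ± 0.788 CPM per kb against 657 ± 23.8 for CP12-2.

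Over all 24 replicates, the members not followed gene by gene below had these levels. In the reduction stage, PGK1, a phosphoglycerate kinase gene, ran from 1221 to 3068 CPM with a median of 1715, and AT1G56190, of the same family, from 195 to 489 CPM with a median of 293. GAPB, the B subunit of the chloroplast glyceraldehyde 3-phosphate dehydrogenase, ran from 1545 to 4322 CPM with a median of 2235. Both kinases and GAPB had their highest mean at step day 2.57.

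In the regeneration stage, the bisphosphatases that make its steps one-way, HCEF1 and SBPase, ran from 510.4 to 1155 CPM with a median of 798 and from 852 to 2061 CPM with a median of 1322. The aldolase gene FBA2 ran from 1752 to 4509 CPM with a median of 2497, and PDTPI, the plastid triose phosphate isomerase gene, from 305 to 730.4 CPM with a median of 428. RPE, the ribulose phosphate epimerase gene, ran from 560.0 to 1086 CPM with a median of 745, and EMB3119, the ribose phosphate isomerase gene, from 129 to 484 CPM with a median of 245. The EMB3119 range was the widest of these, and its highest mean was at step day 0.6 and its lowest at 450 µmol m-2 s-1.

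In photorespiration, PGLP1, whose product takes the phosphate off phosphoglycolate, ran from 247 to 523 CPM with a median of 337. The glycolate oxidase genes GOX1 and GOX2 ran from 1469 to 2606 CPM with a median of 1733 and from 672 to 1084 CPM with a median of 821. GDCH ran from 462 to 1144 CPM with a median of 637, and AT1G80380 from 194 to 333 CPM with a median of 261. GOX1, GOX2 and AT1G80380 spanned less than GDCH on a ratio scale, and PGLP1 shares 98.7% identity over 1782 bases with AT5G36790, so its counts may hold reads of that locus.

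Higher growth light went with lower levels of most Calvin cycle transcripts. Photorespiratory ones were called in both directions, as were loci at large. At 450 µmol m-2 s-1, 20 of the 24 Calvin cycle members were lower than at 100 and 2 were higher. At 700, 14 were lower and 2 higher. Of the 15 photorespiration members, 7 were lower and 3 higher at 450, and 4 were lower and 4 higher at 700. Over all 20669 loci tested, 22.3% were lower and 21.4% higher at 450 (43.7% in either direction), and 20.3% lower and 19.7% higher at 700 (40.0% in either direction). The median log2 change was -0.52 for the Calvin cycle and -0.21 for photorespiration at 450, and -0.40 and -0.11 at 700, beside medians of 0.00 over all loci at both lights. In whole leaves, fewer cells of a type and less RNA per cell cannot be told apart.

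**Figure D1:**
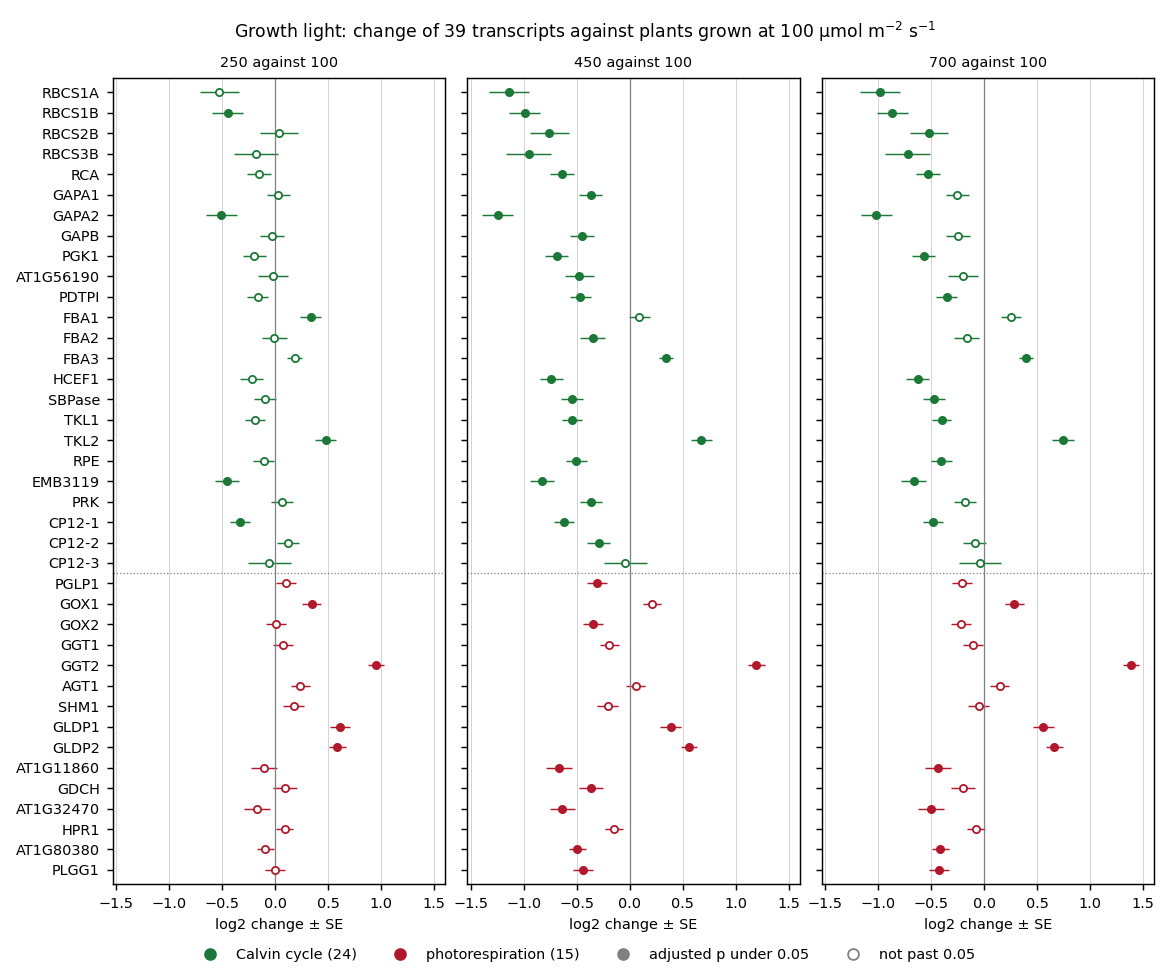
Log2 change with SE of each of the 39 transcripts at growth lights of 250, 450 and 700 against 100 µmol m-2 s-1 (n = 2 a group), Calvin cycle members in green and photorespiration members in red, with filled points for an adjusted p under 0.05. At 450 and 700 most Calvin cycle points lie left of 0, while TKL2, FBA3, GGT2, GLDP1 and GLDP2 lie right of it.

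The main small subunit gene of Rubisco, RBCS1A, had 19913 and 19516 CPM in the replicates at 100, 14520.4 and 12911 CPM at 250, 10998 and 7021 CPM at 450 and 10719 and 9356 CPM at 700. All replicates at 250 and above lay below both at 100. Its log2 change was -1.14 ± 0.19 (SE, adjusted p = 0.000391) at 450 and -0.98 ± 0.19 (SE, adjusted p = 0.00124) at 700, and at 250 it did not pass the test. All 4 RBCS genes were lower at 450 and at 700, though at 700 the calls of RBCS2B and RBCS3B ended under DESeq2 and when any 1 replicate was left out. RCA, the activase that frees Rubisco's active sites, went from 8633 and 9129 CPM to 6112 and 5371 CPM at 450 and 6225 and 6152 CPM at 700, a change of -0.64 ± 0.11 (SE, adjusted p = 0.000698) and -0.53 ± 0.11 (SE, adjusted p = 0.00281).

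In the reduction stage, of the genes for the A subunit of glyceraldehyde 3-phosphate dehydrogenase, GAPA2 was lower at all 3 higher lights and GAPA1 was called at 450 alone. GAPA2 read 1994 and 2111 CPM at 100, 1486 and 1409.5 CPM at 250, 1012 and 728 CPM at 450 and 1104 and 934 CPM at 700. Among the called members of the Calvin cycle it had the largest fall at each light, -0.51 ± 0.14 (SE, adjusted p = 0.0197) at 250, -1.25 ± 0.15 (SE, adjusted p = 2.89e-05) at 450 and -1.02 ± 0.14 (SE, adjusted p = 0.000149) at 700. The call at 250 ended when any 1 of the 4 replicates was left out. GAPA1 had 2364 and 2575 CPM at 100 and 2187 and 1973 CPM at 700 and was not called at 700. As a share of the GAPA1 and GAPA2 counts, GAPA2 made up 45.8 and 45.0% in the replicates at 100 and 33.6 and 32.1% at 700. The difference between these 2 genes was not itself tested.

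Among the regeneration enzymes, 8 of 11 were lower and 2 higher at 450, and 6 lower and 2 higher at 700. The higher ones were TKL2, the scarce transketolase, and FBA3, a plastid aldolase of low level. TKL2 had 16.7 and 17.7 CPM at 100, 22.7 and 25.2 CPM at 250, 25.1 and 30.3 CPM at 450 and 29.1 and 28.7 CPM at 700, with no overlap between 100 and any other light. Its changes were 0.48 ± 0.10 (SE, adjusted p = 0.00453), 0.68 ± 0.10 (SE, adjusted p = 0.000205) and 0.74 ± 0.10 (SE, adjusted p = 0.000112), the largest rise of the Calvin cycle at each light, and the call at 250 ended without replicate 1 at 100. FBA3 rose by 0.34 ± 0.07 (SE, adjusted p = 0.0013) at 450 and 0.40 ± 0.07 (SE, adjusted p = 0.000522) at 700, from 88.1 and 85.9 CPM at 100 to 117 and 113 CPM at 700. FBA3 is overlapped by another gene on the same strand. TKL1, the abundant transketolase, read 2452 and 2405 CPM at 100 and 1855 and 1837 CPM at 700, and PRK, which makes ribulose bisphosphate, 1583 and 1597 CPM and 1445 and 1368 CPM.

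CP12-1 fell by 0.33 ± 0.09 (SE, adjusted p = 0.0206) at 250, by 0.62 ± 0.09 (SE, adjusted p = 0.000224) at 450 and by 0.48 ± 0.09 (SE, adjusted p = 0.00146) at 700, with 700.2 and 785 CPM at 100 and 534 and 534 CPM at 700. The call at 250 ended with total counts alone and in 3 of 4 fits without 1 replicate, the exception being replicate 1 at 100. CP12-2 passed the test only at 450, at -0.29 ± 0.11 (SE, adjusted p = 0.0436). That call ended with total counts alone, with the first transcript only and in a fit of the 2 groups alone. It also ended with either replicate at 100 left out and with replicate 2 at 450 left out. CP12-3 stayed between 3.55 and 4.83 CPM in the growth light replicates and was called at no light.

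In photorespiration, the rising genes were an aminotransferase, the P-protein genes and, at 250 and 700, the glycolate oxidase gene GOX1, whose calls ended when any 1 replicate was left out. GGT2, the scarcer of both peroxisomal glutamate:glyoxylate aminotransferases, had 51.3 and 52.8 CPM at 100, 105 and 97.1 CPM at 250, 116 and 125 CPM at 450 and 142 and 131 CPM at 700. No 2 of these groups overlapped. Its changes of 0.95 ± 0.08 (SE, adjusted p = 8.67e-06), 1.20 ± 0.08 (SE, adjusted p = 4.65e-07) and 1.39 ± 0.08 (SE, adjusted p = 2.30e-07) were the largest rises of the 39 at each light. GGT1, its abundant relative, had 1667 and 1734 CPM at 100 and 1623 and 1557 CPM at 700 and was not called.

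The P-protein is the subunit of glycine decarboxylase that takes the carboxyl group off glycine. GLDP1 rose from 2290.3 and 2365 CPM at 100 to 3715 and 3418 CPM at 250 and read 3387 and 3500.0 CPM at 700. GLDP2 rose from 449 and 462 CPM to 694 and 676 CPM and read 727 and 722 CPM at 700. Both were already called at 250, at 0.61 ± 0.10 (SE, adjusted p = 0.000741) for GLDP1 and 0.59 ± 0.08 (SE, adjusted p = 0.000201) for GLDP2, and stood at 0.56 ± 0.10 (SE, adjusted p = 0.00077) and 0.66 ± 0.08 (SE, adjusted p = 3.78e-05) at 700. Other subunit loci were lower. AT1G11860, annotated as the T-protein, gave the largest photorespiratory fall at 450, -0.67 ± 0.12 (SE, adjusted p = 0.000943), and AT1G32470 the largest at 700, -0.50 ± 0.12 (SE, adjusted p = 0.00538), a call that ended without replicate 2 at 700. SHM1, which joins glycine and a one-carbon unit to serine, had 3034 and 3204 CPM at 100 and 3127 and 2915 CPM at 700 and was not called at any light.

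Of the steps around them, PLGG1, the plastid glycolate and glycerate transporter, fell by 0.44 ± 0.09 (SE, adjusted p = 0.00221) at 450 and by 0.43 ± 0.09 (SE, adjusted p = 0.00316) at 700, from 525 and 551 CPM at 100 to 418 and 388 CPM at 700. AGT1, the peroxisomal serine:glyoxylate aminotransferase, read 1479 and 1587 CPM at 100 and 1745 and 1666 CPM at 700, and HPR1, the peroxisomal hydroxypyruvate reductase, 830.5 and 888 CPM and 833 and 805 CPM. Neither was called at any of the 3 lights.

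Summed over its members, the Calvin cycle went from 63644 and 64204 CPM at 100 to 43956 and 40119 CPM at 700. Photorespiration went from 15744 and 16486 CPM to 17223 and 16569 CPM. The ratio of the sums was 4.04 and 3.89 at 100, 2.92 and 2.87 at 250, 2.71 and 2.13 at 450 and 2.55 and 2.42 at 700. Both replicates at 100 lay above all 6 at the higher lights. The RBCS genes held 33082 and 32429.9 CPM of the Calvin cycle sum at 100 and 19406 and 16913 CPM at 700.

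**Figure D2:**
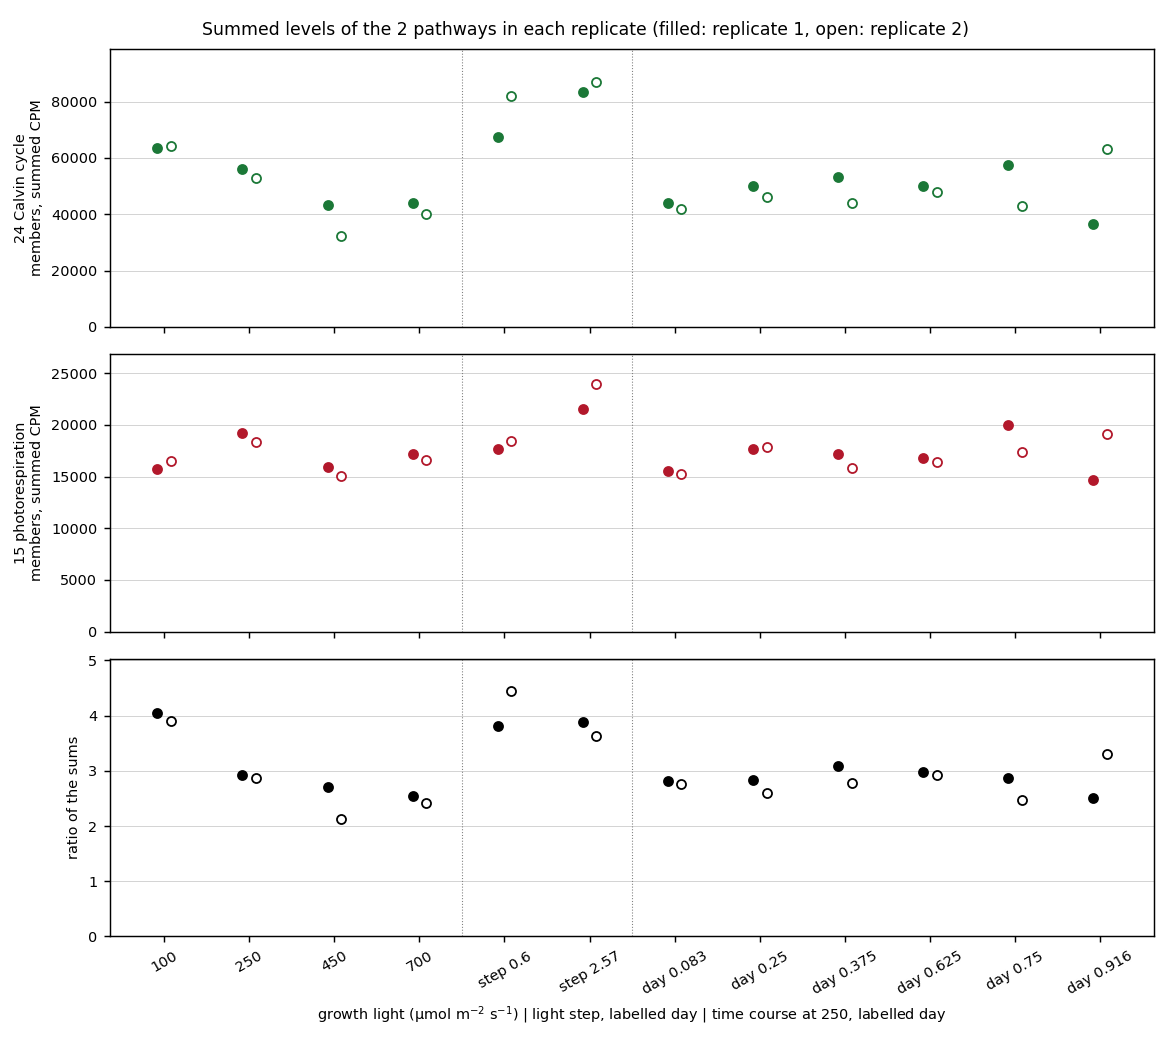
Summed CPM of the 24 Calvin cycle members, summed CPM of the 15 photorespiration members and the ratio of the sums, for each replicate of the 12 groups. The ratio is 3.63 to 4.45 at growth light 100 and after the step, and lies between 2.13 and 3.30 in all other groups, while the replicates of day 0.916 and day 0.75 are far apart.

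At 250 against 100 fewer members were called: 2 Calvin cycle members were higher and 4 lower, and 4 photorespiration members were higher, beside 28.7% of all loci (14.2% higher, 14.4% lower). Across all 4 lights, a slope on log2 of light was called for 15 Calvin cycle members (2 rising, 13 falling) and 6 photorespiration members (2 rising, 4 falling), beside 37.8% of all loci (18.2% rising, 19.6% falling). Per doubling of light, GGT2 changed by 0.49 ± 0.05 (SE, adjusted p = 0.000103), TKL2 by 0.27 ± 0.04 (SE, adjusted p = 0.000473), GAPA2 by -0.42 ± 0.07 (SE, adjusted p = 0.0013) and AT1G32470 by -0.21 ± 0.05 (SE, adjusted p = 0.00951). The count at 250 was 4 or 5, in place of 10, when any 1 of its 4 replicates was left out, and the slope count was 13, in place of 21, without replicate 2 at 100.

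The direction of the photorespiration median rested on the scaling. With total counts alone, the median of all loci moved to 0.24 at 450 and 0.19 at 700, that of photorespiration to 0.03 and 0.09, and that of the Calvin cycle to -0.29 and -0.20. Under that scaling 14 Calvin cycle members were lower and 3 higher at 450, and 10 lower and 3 higher at 700, with 5 photorespiration members higher and 3 lower at each. The share of all loci called under that scaling is not given here, only how the calls split by direction. The share of all called loci that were higher went from 49.6% to 65.4% at 250, from 49.0% to 74.4% at 450, from 49.2% to 73.2% at 700 and from 48.1% to 74.8% for the slope. The 4 mesophyll markers were lower alongside, from 33169 and 35295 summed CPM at 100 to 13957 and 12787 at 700. In the same comparison the epidermis markers went from 279 and 284 to 234 and 238 summed CPM. The 3 guard cell markers went from 57.8 and 55.8 to 51.4 and 46.4, and the 2 xylem markers from 34.1 and 33.2 to 23.2 and 25.3. The 2 markers of phloem companion cells went from 416 and 387 to 469 and 492. The mesophyll list holds antenna and carbonic anhydrase genes, so its sum need not follow the share of mesophyll cells. The part of these lists in the result was not tested.

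The genes around both pathways were counted from lists, beside the 43.7% of all loci called at 450 and 40.0% at 700. Of 11 Rubisco assembly genes (chaperonins and assembly factors), 10 were lower at 450, and 9 were lower and 1 higher at 700, with CPN60B2, a chaperonin subunit, at -1.46 ± 0.11 (SE, adjusted p = 1.55e-06) and RBCX2, an assembly chaperone, at 0.30 ± 0.08 (SE, adjusted p = 0.0103). Of 12 isozymes outside the plastid, 4 (33.3%) were lower at each of these lights and none higher, a share below that of all loci, with FBA5, an aldolase, at -0.50 ± 0.14 (SE, adjusted p = 0.014) at 700. Of 14 further photorespiration genes, 7 were higher and 1 lower at 700 (57.1% called). GOX3, a glycolate oxidase gene at 2.06 and 1.98 CPM at 100 and 8.18 and 7.80 CPM at 700, rose most (1.97 ± 0.18 SE, adjusted p = 5.23e-06), and HAOX2, a related oxidase gene, fell (-0.46 ± 0.09 SE, adjusted p = 0.00121). Of the 4 genes of ammonia refixation, 2 were lower at 700, DiT1, the 2-oxoglutarate/malate translocator, the most (-1.14 ± 0.12 SE, adjusted p = 1.37e-05). All 3 genes of carbon dioxide supply and triose phosphate export were lower (one of them, BCA1, is also a mesophyll marker above), the carbonic anhydrase gene BCA2 the most (-1.33 ± 0.21 SE, adjusted p = 0.000381).

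Over the day at 250 µmol m-2 s-1, few of these genes passed the test. Over the 6 time points 7 of the 39 were called (3 of the Calvin cycle and 4 of photorespiration), beside 60.0% of all 20958 loci. The median range between the highest and lowest time, on the log2 scale, was 0.39 for the Calvin cycle and 0.38 for photorespiration, against 0.85 over all loci. The called members were RBCS2B, CP12-1, CP12-2, GLDP1, GLDP2, HPR1 and GGT2, the last named here after its values were seen. RBCS2B had the widest range of the 39, 1.09 (adjusted p = 0.0159), followed by CP12-2 at 1.02 (adjusted p = 0.00955). In photorespiration GLDP2 ranged over 0.92 (adjusted p = 0.00131) and HPR1 over 0.62 (adjusted p = 0.0173). Without replicate 2 of day 0.375 neither CP12-2 nor HPR1 was called, and HPR1 was not called without replicate 1 of day 0.75.

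Of the calls between neighbouring times, most fell between days 0.375 and 0.625, the widest gap in the labelled times. There 4 members were higher and 1 lower, 12.8% of the 39. Over all loci the shares were 19.9% higher and 21.6% lower (41.5% in either direction). Between the same times the mesophyll markers went from 11649.7 and 9504 to 19176 and 17542 summed CPM and the 3 epidermis markers from 329.5 and 376 to 253 and 262, and their part in the result was not tested. RBCS2B read 1598 and 1490.3 CPM at day 0.083, 1685 and 1488 CPM at 0.25, 1557 and 1305 CPM at 0.375, 2939.8 and 2700.3 CPM at 0.625, 3766 and 2310.3 CPM at 0.75 and 1395 and 2630.1 CPM at 0.916. It was low in all 6 replicates up to day 0.375 and higher in all 4 at days 0.625 and 0.75, with a step of 0.98 ± 0.28 (SE, adjusted p = 0.0167) that was no longer called without replicate 2 of day 0.375 or without either replicate of day 0.625. RBCS1A was not called over the day, with 16290.2 and 13383 CPM at day 0.375 and 13089.6 and 13028 CPM at day 0.625. Its share of the RBCS counts was 65.6 and 67.5% at day 0.375 and 55.1 and 57.5% at day 0.625. RBCS2B is 95.1% identical over 638 bases to RBCS3B, so reads of the pair may be shared. With RBCS1B, RBCS2B and RBCS3B summed as 1 locus, 6 members were called over the day and that sum was not among them.

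CP12-1 and CP12-2 were both lowest at day 0.375. CP12-2 had 425 and 424 CPM at day 0.083, 289 and 205 CPM at 0.375 and 459.7 and 407 CPM at 0.625, a rise of 0.81 ± 0.20 (SE, adjusted p = 0.00686). CP12-1 had 367 and 299 CPM at day 0.375 and 574 and 564 CPM at 0.625, a rise of 0.77 ± 0.13 (SE, adjusted p = 0.000831). For both, the replicates of these 2 times did not overlap, and the CP12-2 call ended without replicate 2 of day 0.375 or replicate 1 of day 0.625. CP12-3 ran from 1.75 to 3.93 CPM and was not called.

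The P-protein genes had their highest means at different times. GLDP2 had 1106 and 1097 CPM at day 0.25, 962 and 924 CPM at 0.375 and 604 and 566 CPM at 0.625, and fell between the last 2 by 0.69 ± 0.13 (SE, adjusted p = 0.00152). GLDP1 had 3544 and 3552 CPM and 3231 and 3348 CPM at days 0.375 and 0.625 and was highest at day 0.75 (4789.9 and 4402 CPM). Its call over the day ended in 7 of the 12 fits that left out 1 replicate. GLDP2 made up 21.4 and 20.7% of the P-protein counts at day 0.083 and 13.6 and 13.2% at day 0.75. HPR1 rose by 0.41 ± 0.14 (SE, adjusted p = 0.0347) between days 0.375 and 0.625, a call that ended when any 1 replicate of these times was left out and with the replicate number as a block.

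GGT2 was the one member called between days 0.083 and 0.25 (beside 7.62% of loci) and between days 0.75 and 0.916 (beside 19.1%). It rose by 0.34 ± 0.08 (SE, adjusted p = 0.0244) from 75.1 and 73.4 CPM to 94.1 and 91.7 CPM, and fell by 0.38 ± 0.08 (SE, adjusted p = 0.00593) from 112 and 114 CPM to 87.2 and 87.5 CPM. The first call ended when any 1 of its replicates was left out. Under total-count scaling it ended too, and the median of all loci in that comparison then stood at -0.13, with 28.5% of calls higher in place of 58.8%. No member was called by edgeR between days 0.25 and 0.375 (beside 18.6% of loci), between 0.625 and 0.75 (beside 4.78%), or between 0.916 and 0.083 (beside 8.50%). At an unadjusted p under 0.05 there were 1, 2 and 1 such members, and DESeq2 called 0, 2 and 1.

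**Figure D3:**
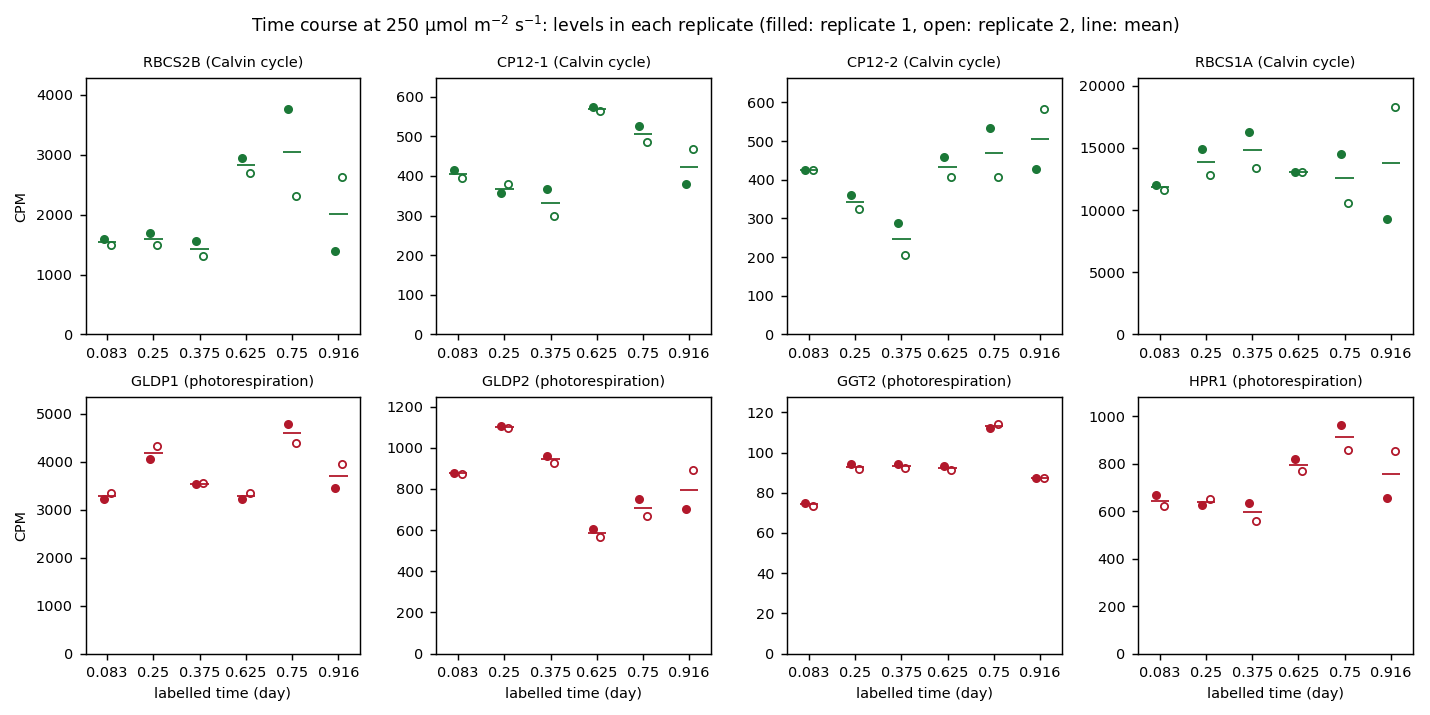
CPM in each replicate at the 6 labelled times of the time course for the 7 members called over the day and for RBCS1A, with a short line at the mean. RBCS2B, CP12-1, CP12-2 and HPR1 are higher at day 0.625 than at 0.375, GLDP2 is lower, and at day 0.916 the 2 replicates of most members are far apart.

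The count over the day turned on the last time point. With either replicate of day 0.916 left out, 21 (without replicate 1) or 16 (without replicate 2) members were called, and 15 without the time point, each including the 7 above. Over all loci, 14068, 13699 and 13810 were then called in place of 12569. The replicates of day 0.916 read 9291 and 18288 CPM for RBCS1A, 829 and 1668 CPM for GAPA2 and 4846 and 7226 CPM for RCA. The mesophyll markers moved with them, at 6494 and 13800.3 summed CPM, and the part of either in the result was not tested. The calls between days 0.75 and 0.916, and between 0.916 and 0.083, also turned on which replicate of day 0.916 was left out. The share of all loci called in those fits is not given here. Between days 0.375 and 0.625, leaving out replicate 2 of day 0.375 or replicate 1 of day 0.625 left 2 calls, and replicate 2 of day 0.625 left 3.

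Growth light 250 at day 0.583 and the time course at day 0.625 were the same light at a close time. No member was called between them by edgeR's test, beside 0.457% of 21239 loci. At an unadjusted p under 0.05 there were 2, and DESeq2 called 0. The fitted values were mostly higher at growth light 250: 4 of the 39 lay below 0, and none of the 15 photorespiration members did. The median log2 change was 0.14 for the Calvin cycle and 0.18 for photorespiration, beside 0.00 over all loci.

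By the mean of the replicates, 9 of the 15 photorespiration members were highest at day 0.75, 4 at 0.25 and 2 at 0.916. Of the 24 Calvin cycle members, 8 were highest at day 0.75, 5 at 0.916, 4 at each of 0.375 and 0.625, 2 at 0.25 and 1 at 0.083. Day 0.083 was the lowest time for 11 Calvin cycle and 8 photorespiration members. Most of these differences did not pass the test, so the times are given as a description.

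After the step from 100 to 700 µmol m-2 s-1, the share of members called was near that of all loci at day 0.6, with more higher than lower. At day 2.57 it was above that of all loci, and every called member was higher. Against plants grown at 100, 10 Calvin cycle members were higher and 2 lower at day 0.6, and 6 photorespiration members were higher and 2 lower. These were 51.3% of the 39, beside 49.0% of all 20652 loci (25.0% higher, 24.0% lower). At day 2.57, 15 Calvin cycle and 11 photorespiration members were higher and none lower. These were 66.7% of the 39, beside 41.7% of all loci (22.2% higher, 19.5% lower). The median changes were 0.21 and 0.12 for the Calvin cycle and photorespiration at day 0.6, and 0.41 and 0.45 at day 2.57, beside -0.02 and -0.01 over all loci. By role, 6 of the 11 regeneration members, 2 of 4 RBCS genes and 4 of the 6 mitochondrial members were higher at day 0.6, and 9, 3 and 5 at day 2.57. The reduction and peroxisomal members each had 2 higher and 2 lower at day 0.6, and 3 and 4 higher at day 2.57. No CP12 gene was called at day 0.6, nor were RCA, PGLP1, AT1G80380 and PLGG1. At day 2.57 the CP12 genes, RCA and AT1G80380 were not called. Both comparisons, and those with growth light, use the same 2 replicates at 100.

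RBCS1B, a small subunit gene, had 2286 and 2060.2 CPM at 100, 4067 and 5567 CPM at step day 0.6 and 4028 and 3914 CPM at day 2.57. Its change of 1.15 ± 0.14 (SE, adjusted p = 2.27e-05) at day 0.6 was the largest of the Calvin cycle then, and all 4 replicates after the step lay above both at 100. RBCS1A had 20604 and 25538 CPM at day 0.6, where it was not called, and 25589.7 and 26307 CPM at day 2.57 (0.39 ± 0.12 SE, adjusted p = 0.0221), a call that ended when any 1 of the 4 replicates was left out. FBA1, a plastid aldolase, gave the largest Calvin cycle rise at day 2.57, from 1266 and 1251 CPM at 100 to 3055 and 3418 CPM (1.35 ± 0.12 SE, adjusted p = 1.59e-06). RCA read 6716 and 8347 CPM at day 0.6 and 10052 and 10684 CPM at day 2.57 and was called at neither.

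FBA3 and TKL2, which were higher at the higher growth lights, were higher after the step too. FBA3 changed by 0.47 ± 0.09 (SE, adjusted p = 0.00104) at day 0.6 and 0.63 ± 0.09 (SE, adjusted p = 0.000155) at day 2.57, and TKL2 by 0.52 ± 0.12 (SE, adjusted p = 0.00298) and 0.56 ± 0.12 (SE, adjusted p = 0.00211). At day 0.6 the Calvin cycle members called lower were the GAPA genes, and the call of GAPA1 ended with either replicate at 100 left out, without replicate 1 of day 0.6 and in a fit of the 2 groups alone. GAPA2 fell by 0.48 ± 0.11 (SE, adjusted p = 0.00387), from 1994 and 2111 CPM to 1353 and 1579 CPM, and GAPA1 read 1886 and 2083 CPM. GAPB, whose product pairs with the A subunit, went up meanwhile, from 2199 and 2342 CPM to 3365 and 3861 CPM and 4013 and 4322 CPM. No CP12 gene was called at either time.

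In photorespiration, GGT2 rose the most at both times, to 90.4 and 89.9 CPM at day 0.6 (0.80 ± 0.11 SE, adjusted p = 6.05e-05) and 126 and 151 CPM at day 2.57 (1.40 ± 0.11 SE, adjusted p = 6.61e-07), from 51.3 and 52.8 CPM at 100. GGT1 had the largest fall at day 0.6, -0.38 ± 0.10 (SE, adjusted p = 0.0073), with 1235 and 1365 CPM against 1667 and 1734 CPM. At day 2.57 it read 1714 and 1897 CPM. Its call at day 0.6 ended without replicate 2 at 100. GLDP1 rose by 0.65 ± 0.13 (SE, adjusted p = 0.00119) and 1.04 ± 0.13 (SE, adjusted p = 4.43e-05), and GLDP2 by 0.35 ± 0.12 (SE, adjusted p = 0.0294) and 0.96 ± 0.12 (SE, adjusted p = 4.34e-05). The GLDP2 call at day 0.6 ended with either replicate at 100 left out, without replicate 1 of day 0.6 and in a fit of the 2 groups alone. The replicates of day 0.6 were apart for both, at 4122 and 3173 CPM for GLDP1 and 641 and 515 CPM for GLDP2. AGT1 (0.39 ± 0.10 SE, adjusted p = 0.00961) and PLGG1 (0.43 ± 0.10 SE, adjusted p = 0.00443) were called at day 2.57 and not at day 0.6. Without replicate 1 at 100 neither was called, and AGT1 was not called without replicate 2 of day 2.57.

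**Figure D4:**
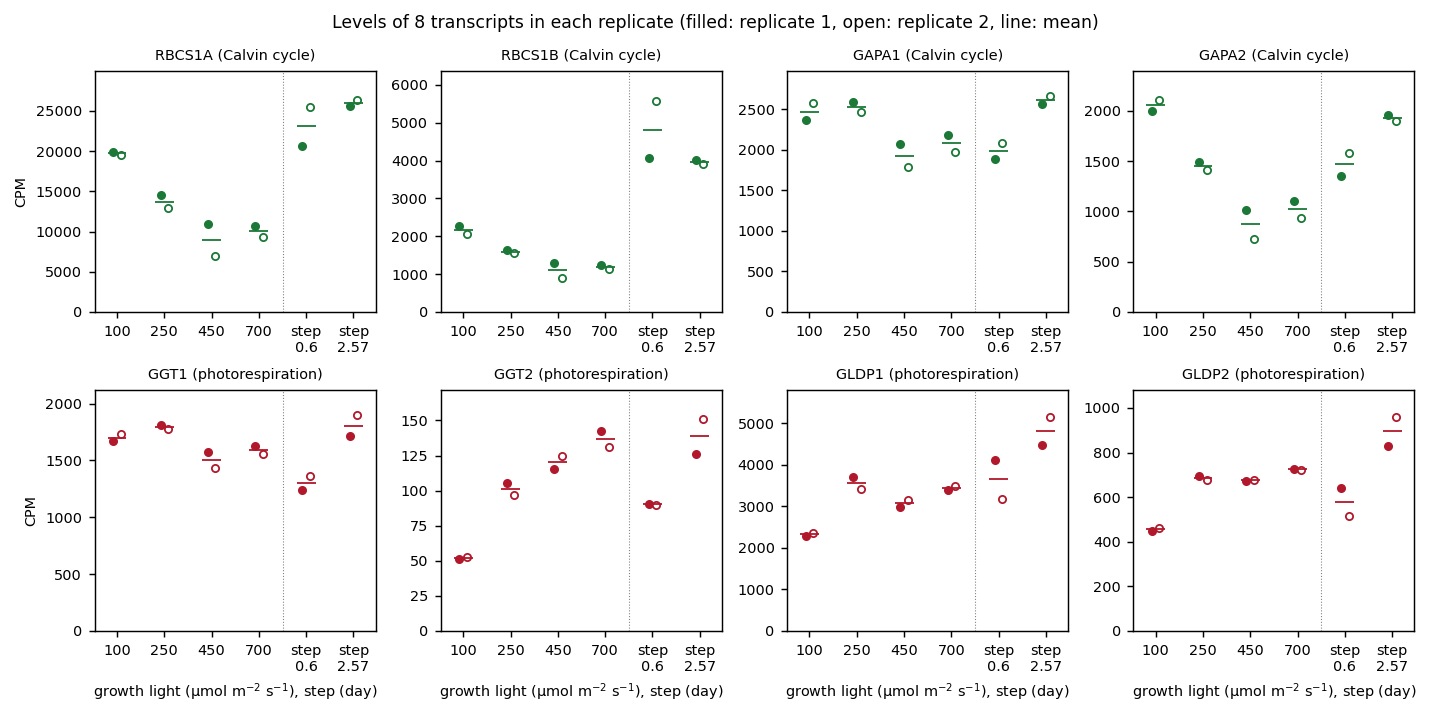
CPM in each replicate at the 4 growth lights and both step times for 8 transcripts, with a short line at the mean. RBCS1A, RBCS1B and GAPA2 are lower at growth lights 450 and 700 than at 100, with their lowest mean at 450. They are higher after the step than in plants grown at 700, while GGT2 is highest in plants grown at 700 and at step day 2.57.

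Set against plants grown at 700, which had the same light for 2 weeks, 18 Calvin cycle members were higher at day 0.6 and 20 at day 2.57, and none was lower. In photorespiration 6 were higher and 2 lower at day 0.6, and 11 were higher at day 2.57. The background was 53.4% of loci at day 0.6 (26.8% higher, 26.6% lower) and 46.3% at day 2.57 (24.1% higher, 22.2% lower). The medians were 0.57 and 0.85 for the Calvin cycle, and 0.11 and 0.49 for photorespiration. The counts of these 2 comparisons share the 2 replicates at 700, and the growth light comparison shares them too.

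RBCS1B led at both times, 2.03 ± 0.14 (SE, adjusted p = 5.62e-07) at day 0.6 and 1.74 ± 0.14 (SE, adjusted p = 2.34e-06) at day 2.57, with 1246 and 1147 CPM at growth light 700. RBCS1A was higher by 1.22 ± 0.12 (SE, adjusted p = 5.70e-06) and 1.38 ± 0.12 (SE, adjusted p = 4.54e-06), and RCA by 0.31 ± 0.12 (SE, adjusted p = 0.0412) and 0.75 ± 0.12 (SE, adjusted p = 0.000222). CP12-1 was called at day 0.6 (0.41 ± 0.14 SE, adjusted p = 0.0292), a call that ended with total counts alone, with either replicate at 700 left out and without replicate 2 of day 0.6, as did that of RCA at the same time. In photorespiration AT1G32470 gave the largest rise at both times, 0.96 ± 0.14 (SE, adjusted p = 9.68e-05) and 1.02 ± 0.14 (SE, adjusted p = 8.69e-05), and PLGG1 was higher by 0.50 ± 0.10 (SE, adjusted p = 0.00118) and 0.87 ± 0.10 (SE, adjusted p = 2.78e-05). GGT2 stood lower at day 0.6 (-0.58 ± 0.11 SE, adjusted p = 0.000593), and at day 2.57 it read 126 and 151 CPM against 142 and 131 CPM at growth light 700 and was not called. GLDP1 (0.49 ± 0.13 SE, adjusted p = 0.00821), GLDP2 (0.31 ± 0.12 SE, adjusted p = 0.0487) and FBA3 (0.24 ± 0.09 SE, adjusted p = 0.0463) passed at day 2.57, and all 3 calls ended with total counts alone, with either replicate at 700 left out and without replicate 2 of day 2.57. The calls of GLDP2 and FBA3 also ended with the replicate number as a block (adjusted p = 0.063 and 0.0683), with RLE size factors, with the first transcript only and with the second lane of day 2.57.

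**Figure D5:**
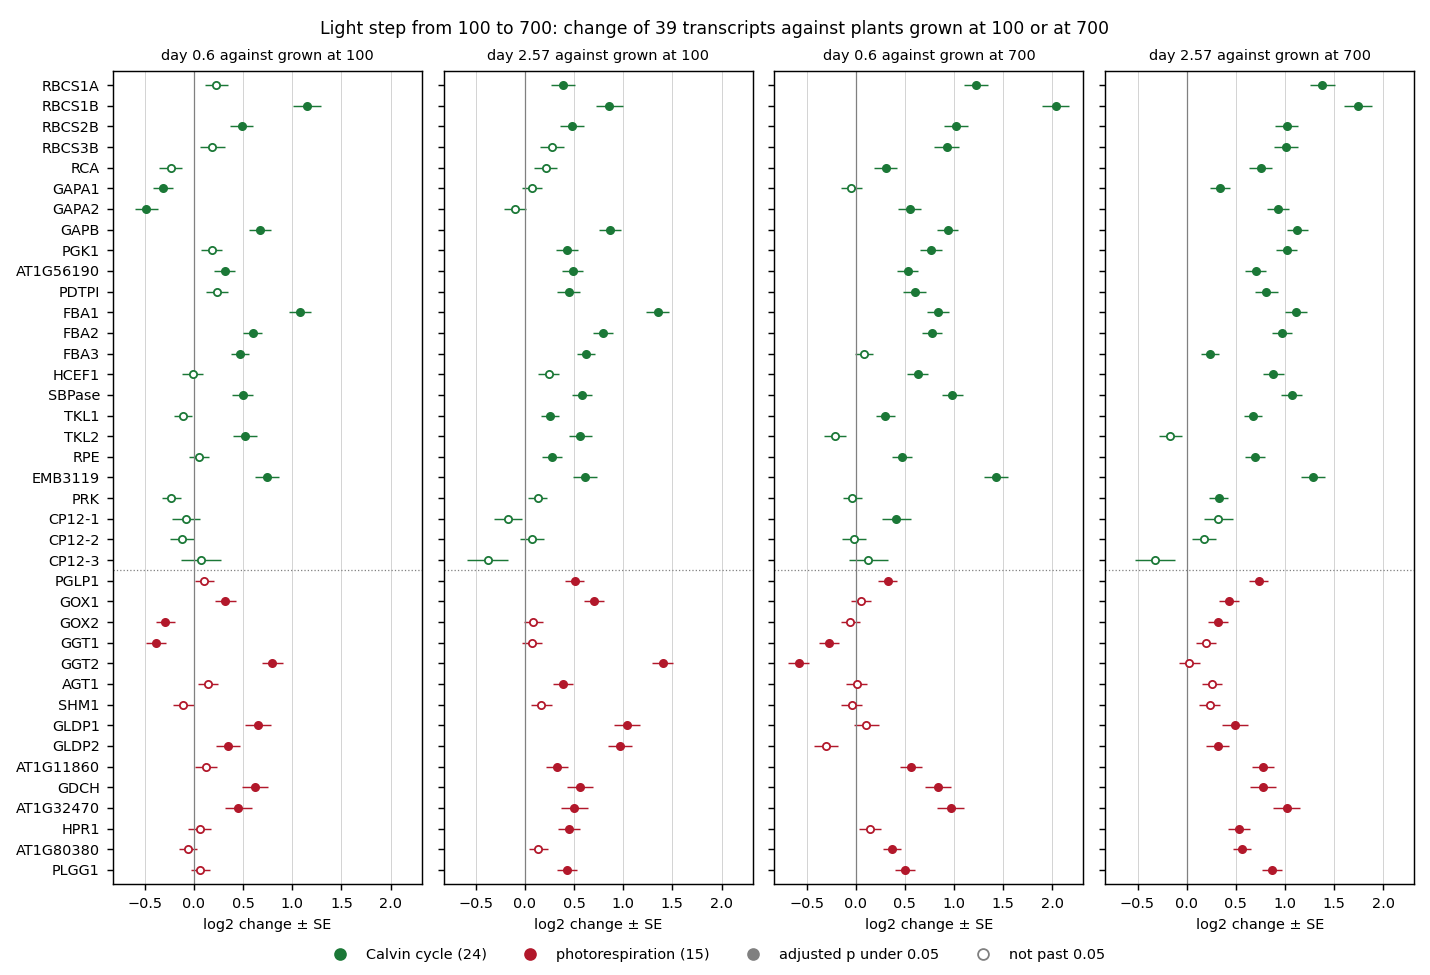
Log2 change with SE of each of the 39 transcripts at step days 0.6 and 2.57 against plants grown at 100 and at 700 µmol m-2 s-1 (n = 2 a group), with filled points for an adjusted p under 0.05. Against growth light 700 all called Calvin cycle points lie right of 0, and GGT2 lies left of 0 at day 0.6.

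With total counts alone, the median of all loci was -0.25 at day 0.6 and -0.27 at day 2.57 against growth light 700, and photorespiration then had 4 members higher and 6 lower at day 0.6 and a median of -0.12. The Calvin cycle had 15 higher and 3 lower at day 0.6 and 17 higher and 2 lower at day 2.57, where photorespiration had 7 higher and none lower. For these counts too, the share of all loci called under that scaling is not given here. The share of called loci that were higher went from 50.2% to 32.5% and from 52.1% to 27.7% under that scaling, and FBA3 at day 2.57 stood at -0.02. Against growth light 100, the count at day 0.6 was 12 in place of 20 without replicate 2 at 100, and at day 2.57 it was 16 in place of 26 without replicate 1 at 100. Guard cell markers were higher after the step, at 89.1 and 84.3 summed CPM at day 0.6 against 57.8 and 55.8 at 100 and 51.4 and 46.4 at 700. The epidermis markers were lower, at 211 and 197 summed CPM at day 0.6 and 224 and 214 at day 2.57 against 279 and 284 at 100. The part of these markers in the result was not tested. The mesophyll markers read 13832 and 15665 summed CPM at day 0.6 and 18010.0 and 16433 at day 2.57, below both replicates at 100.

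Between the step times, GGT2 and GLDP2 were called, both higher at day 2.57, beside 3.29% of 19998 loci higher and 4.65% lower (7.93% in either direction). GGT2 changed by 0.60 ± 0.14 (SE, adjusted p = 0.0231) and GLDP2 by 0.61 ± 0.17 (SE, adjusted p = 0.0449), and in both the replicates did not overlap. DESeq2 called 5 members, and with replicate 1 or 2 of day 0.6 left out 4 or 7 were called. Neither call remained when either replicate of day 2.57 was left out, and that of GLDP2 also ended without replicate 2 of day 0.6. In a fit with all 4 groups of the step comparison, 13 members were called, 5 of the Calvin cycle and 8 of photorespiration, all higher at day 2.57. The share of all loci called in that fit is not given here, and the 7.93% belongs to the fit of the 2 groups alone. Between the same times the medians were 0.19 for the Calvin cycle and 0.37 for photorespiration, beside 0.00 over all loci.

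The sums after the step were 67288 and 81934 CPM for the Calvin cycle at day 0.6 and 83436 and 86885 CPM at day 2.57. For photorespiration they were 17665 and 18400.5 CPM and 21509.6 and 23934 CPM. Their ratio was 3.81 and 4.45 at day 0.6 and 3.88 and 3.63 at day 2.57. All 4 values were above the 2 of growth light 700, and the sums of both pathways at day 2.57 were the highest of the 12 groups.

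Around the members, the lists are read beside the 49.0% of all loci called at day 0.6 and 41.7% at day 2.57. Against growth light 100, 9 of the 11 Rubisco assembly genes were higher and 2 lower at day 0.6, and 8 were higher and 1 lower at day 2.57. CPN60B2 rose the most, to 531 and 537 CPM at day 2.57 from 186 and 161 CPM at 100 (1.61 ± 0.16 SE, adjusted p = 6.99e-06). RBCX1, an assembly chaperone gene, fell to 18.7 and 19.7 CPM from 107 and 102 CPM (-2.45 ± 0.12 SE, adjusted p = 1.49e-08). Of the 14 further photorespiration genes, 8 were higher and 1 lower at day 2.57 (64.3% called), with CAT2, the peroxisomal catalase gene, at 2.05 ± 0.11 (SE, adjusted p = 3.58e-08) and HAOX2 at -0.85 ± 0.12 (SE, adjusted p = 8.73e-05). CAT2 is also the widest of that list over the day. All 4 ammonia refixation genes were higher at day 2.57, DiT1 the most (0.98 ± 0.11 SE, adjusted p = 1.17e-05). Of the 12 isozymes outside the plastid, 8 were higher, GAPC1 the most (0.87 ± 0.10 SE, adjusted p = 2.74e-05), and 2 lower, FBA5 the most (-1.18 ± 0.12 SE, adjusted p = 8.86e-06). Of the 3 genes of carbon dioxide supply and export, BCA1, a carbonic anhydrase gene, was higher (0.51 ± 0.11 SE, adjusted p = 0.00231) and TPT, the triose phosphate exporter, lower (-0.43 ± 0.11 SE, adjusted p = 0.00632).

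Between paralogs, the balance of counts moved over the 24 replicates. RBCS1A held 52.8% to 67.5% of the RBCS counts, GAPA2 28.8% to 45.8% of the GAPA counts and GLDP2 13.2% to 21.4% of the P-protein counts. GOX2 held 28.4% to 39.3% of the GOX1 and GOX2 counts, and FBA1 33.0% to 43.1% of the FBA1 and FBA2 counts. GOX2's share was 38.0 and 39.3% in the replicates at 100, 30.8 and 30.8% at 700, and 28.8 and 29.6% and 29.9 and 28.4% at step days 0.6 and 2.57. FBA1's share was 33.5 and 33.4% at 100 and 41.9 and 43.1% at step day 2.57. The splice forms of one locus could not be followed in the same way: the 3 RCA transcripts each kept near the same share of the locus in all replicates, the first between 34.5% and 36.7%.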

How the data were processed

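RNA-seq counts were analysed for 24 replicate libraries, each sequenced on 2 lanes. The authors deposited read counts per transcript in 3 tables (growth light, time course, light step), with no normalization, per the file headers. The submitters' processing notes name Bowtie2 and TAIR10, with no version. Strand, multi-mapping and counting rules are not given in the sources used here, and 70.4% of lane counts from 1 to 10 were even. An alternative halved the counts for that reason. Annotation, sequences and overlaps came from RefSeq's TAIR10.1, and transcript identities from its sequences.

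Lanes were summed per replicate and transcripts per locus (41671 transcripts, 33602 loci). At step day 2.57 the first-lane columns of both replicates bear the same name but for a capital letter. Each was joined to the second-lane column it differed from least, by the ratio of the variance between columns to counting error: 1.91 in both pairs chosen, against 7.16 and 7.14 for the other pairing. Over all 24 replicates the lanes of one library gave 1.85 to 1.91. The growth light table is held as 2 identical copies and was used once. Among the members CP12-3, at 1.75 to 5.04 CPM, rests on the fewest counts.

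Loci were kept by filterByExpr (edgeR 4.0.16 in R 4.3.3) and scaled by TMM. The quasi-likelihood test was run over the 4 growth lights, the 6 times, or both step times with growth lights 100 and 700. The step times were compared with each other in a fit of those 2 groups alone, and growth light 250 with day 0.625 in a fit of all growth light and time course groups. The p-values were adjusted over all loci with a threshold of 0.05. The SE was taken as the absolute log2 ratio over the root of its F statistic. Replicates were pools of separately extracted plants, combined at random within a treatment, so equal replicate numbers do not pair samples across groups. Alternatives were other size factors, total counts alone, 2 other filters, DESeq2 1.42.0, a replicate block, halved counts, the first transcript only, near-identical loci summed, each replicate left out, only the groups compared, a linear slope, and, chosen after seeing the data, step day 2.57 from its second lane.

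The members and gene lists were chosen with earlier results of these data known, and some names follow the annotation rather than common usage. In each comparison the text names, per pathway, the largest rise and fall past the threshold (over the day, the 2 widest ranges), and RBCS1A, RCA, the CP12 genes, FBA3, TKL2, AGT1, GLDP1, GLDP2, SHM1 and PLGG1 where they passed. Other members are given as levels, and any other change named was chosen after its values were seen.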

Additional observations from a re-analysis of the deposited data

Results flagged for a closer look

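For the light step, the later time differed from the earlier one in GGT2 and GLDP2, by a test of the difference itself. GGT2 was higher at day 2.57 than at day 0.6 by 0.60 on the log2 scale and GLDP2 by 0.61, as fitted by edgeR, with 2 of 2 replicates above both of the other time for each gene. The other 37 members did not pass this test. The 2 calls are 5.13% of the 39, below the 7.93% called over all loci. Both ended when either replicate of day 2.57 was left out, and that of GLDP2 also with total counts alone, with the first transcript only, with the second lane of day 2.57 and without replicate 2 of day 0.6. No explanation was weighed.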

How the results depend on the processing

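The calls of single members were compared under every alternative: of 2923 comparisons 2644 kept their call, 278 kept the direction without passing, and 1 reversed, FBA3 at step day 2.57 against growth light 700 with total counts alone (-0.025). Counts of called members are given here where they moved by over 1.5 times. The shares of all loci called under these alternatives are not given in this section. Fits of the 2 groups alone gave 19 at 250 against 100 (10 in the report), 5 at day 0.25 against 0.083 (1), 1 at 0.375 against 0.25 (0), 14 at 0.625 against 0.375 (5), 0 at 0.916 against 0.75 (1) and 3 at growth light 250 against day 0.625 (0). A slope per 100 units of light gave 12 (21). Total counts alone gave 14 over the day (7), 0 at day 0.25 against 0.083, 2 at 0.75 against 0.625 (0), 2 at 0.916 against 0.75 and 1 between the step times (2). DESeq2 gave 2, 2, 2 and 1 at days 0.25, 0.75, 0.916 and 0.083 against the time before, and 5 between the step times. A filter of at least 1 read gave 0 at day 0.25 and 1 at day 0.75, and 10 counts in every replicate, halved counts and the first transcript each gave 1 at day 0.75. The first transcript and the second lane each gave 1 between the step times, and a fit with both growth lights of the light step gave 13. Without day 0.916, 15 were called over the day.

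With 1 replicate left out, the counts ran from 4 to 5 at 250 against 100, 24 to 35 at 450, 17 to 21 at 700, 13 to 25 for the slope, 5 to 21 over the day, 0 to 0 at day 0.25 against 0.083, 2 to 4 at 0.625 against 0.375, 1 to 12 at 0.916 against 0.75, 0 to 10 at 0.083 against 0.916, 12 to 22 and 16 to 22 at step days 0.6 and 2.57 against growth light 100, 20 to 28 and 24 to 30 against 700, and 0 to 7 between the step times. Where that leaves 1 replicate in a group, it is assumed to vary like the others. For the comparisons of 2 groups, the shares of all loci called in these fits are not given here.

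Total counts alone also moved the share of higher calls at days 0.375, 0.75 and 0.083 against the time before, from 45.4% to 61.1%, 43.3% to 60.6% and 57.8% to 47.2%, and for growth light 250 against day 0.625 from 46.4% to 26.9%.

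With the replicate number as a block, no count of called members moved by over 1.5 times, and 201 of 206 member calls were kept. Deviations of same-numbered replicates correlated at -0.03 to 0.14 among the growth lights, -0.54 to 0.18 over the day and -0.09 to 0.09 for the light step. The medians over pairs of groups were 0.02, 0.02 and -0.02. A source shared under swapped numbers would give a negative value, and a shared source was not tested. The depth limits CP12-3 most, at no more than 5.04 CPM.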
